A study of Mus musculus with 46 samples.

Results

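The 9 genes described here encode lysosomal cathepsins: Ctsa, Ctsb, Ctsc, Ctsd, Ctsh, Ctsk, Ctsl, Ctss and Ctsz. They were taken by gene symbol from a table of 53465 genes, and all 9 were present, each in 1 row. Expression was measured by RNA sequencing in cells sorted from the kidneys of male wild-type (WT) C57BL/6 mice aged 8 to 12 weeks after sham surgery, unilateral ureteric obstruction (UUO, in which 1 ureter is tied off) or reversible UUO (rUUO, in which the obstruction is later relieved). The study culled UUO mice at day 2 or day 7 and rUUO mice 14 days after reversal, but the sample labels do not give the day for the UUO samples. The sorted populations were proximal tubular (PT) cells binding Lotus lectin (LTL+), F4/80+ macrophages, CD31+ endothelial cells and PDGFRB+ stromal cells. The 44 samples used were 10 of PT cells (3 sham, 4 UUO, 3 rUUO), 11 of macrophages (4, 4, 3 in the same order), 11 of the endothelium (4, 3, 4) and 12 of the stroma (4, 4, 4). Values are FPKM, that is fragments scaled to transcript length and to the mapped fragments of the sample, so that levels can be set side by side between genes.

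Cathepsins are the proteases of the lysosome, the acidic compartment in which cells break down proteins taken up from outside and their own worn-out components. They are made as inactive precursors, sorted to the lysosome largely by mannose 6-phosphate tags, activated by cleavage at acidic pH, and, for the cysteine proteases among them, held in check outside it by cystatins. In the kidney, PT cells use them to degrade filtered proteins, macrophages to digest engulfed material and to process antigen, and cells of fibroblast type to degrade collagen. By catalytic type, Ctsd encodes an aspartic protease and Ctsa a serine carboxypeptidase that also protects 2 other lysosomal enzymes, while the remaining 7 encode cysteine proteases. Of these, Ctsl, Ctss and Ctsk encode endopeptidases, Ctsb an enzyme that cuts both inside a chain and at its end, and Ctsc, Ctsh and Ctsz enzymes that trim chain ends.

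The genes lie on 6 mouse chromosomes. In the coordinates of the deposited table (GRCm38), Ctsd spans chr7:142375911-142388038 on the minus strand and Ctsl chr13:64359337-64370890 on the minus strand. Ctsk (chr3:95499256-95509362) and Ctss (chr3:95526786-95556403) are neighbours on the plus strand, with 17423 bases between them. Ctsb lies at chr14:63122462-63145923, Ctsc at chr7:88278085-88310888, Ctsh at chr9:90054152-90076089 and Ctsa at chr2:164832873-164841032, all on the plus strand, and Ctsz at chr2:174427493-174439039 on the minus strand.

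Many lysosomal genes carry in their promoters the E-box-type letters that TFEB and its relatives, the MiT/TFE transcription factors, are known to bind. RefSeq promoter windows (GRCm38.p6, 250 bases before to 50 after a start site) were found for 7 of the 9 members and searched on both strands for TCACGTGA, which contains the shorter E-box CACGTG. TCACGTGA was present in the windows of Ctsd and Ctsa, against 0.974% of all 32851 windows. CACGTG was present in those of Ctsd, Ctsa and Ctsl, against 7.15% of all windows. The windows of Ctsc, Ctsk, Ctss and Ctsz held neither, and none was found for Ctsb and Ctsh. All matches of the 3 genes are shown, whatever their changes after surgery. They are printed 5′ to 3′ on the strand of the gene, with the matched letters in capitals. Distances are counted from the RefSeq start site, which in these 3 genes lies inside the span given above from the deposited table. A match before that start can therefore lie inside the span.
Ctsd, chr7:142387908-142387937, minus strand, match 99 bases before the start: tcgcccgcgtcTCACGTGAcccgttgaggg
Ctsd, chr7:142388048-142388077, minus strand, shorter match 245 bases before the start: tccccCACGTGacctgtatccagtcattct
Ctsa, chr2:164833749-164833778, plus strand, match 13 bases before the start: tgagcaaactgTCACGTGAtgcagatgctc
Ctsa, chr2:164833766-164833795, plus strand, match 4 bases after the start: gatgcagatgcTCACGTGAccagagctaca
Ctsl, chr13:64370739-64370768, minus strand, shorter match 236 bases before the start: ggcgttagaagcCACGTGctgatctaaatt
The letters are a description of these windows and show nothing about binding in these cells.

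In sham kidneys the macrophages held by far the most cathepsin transcript. The summed level of the 9 genes was 4208 ± 504 FPKM (SD, n = 4) in macrophages, 622 ± 78.3 in PT cells (SD, n = 3), 665 ± 65.1 in endothelial cells (SD, n = 4) and 664 ± 71.4 in stromal cells (SD, n = 4). The leading gene differed: Ctss made up 44.6% of the macrophage sum, whereas Ctsl led in the others with 37.5% in PT cells, 35.0% in endothelial cells and 41.0% in stromal cells. Each sample pools many sorted cells, so that a different mix of cells and a different level per cell cannot be told apart. The PT sum also depends on the mitochondrial share of the FPKM sum, which is given below.

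**Figure D1:**
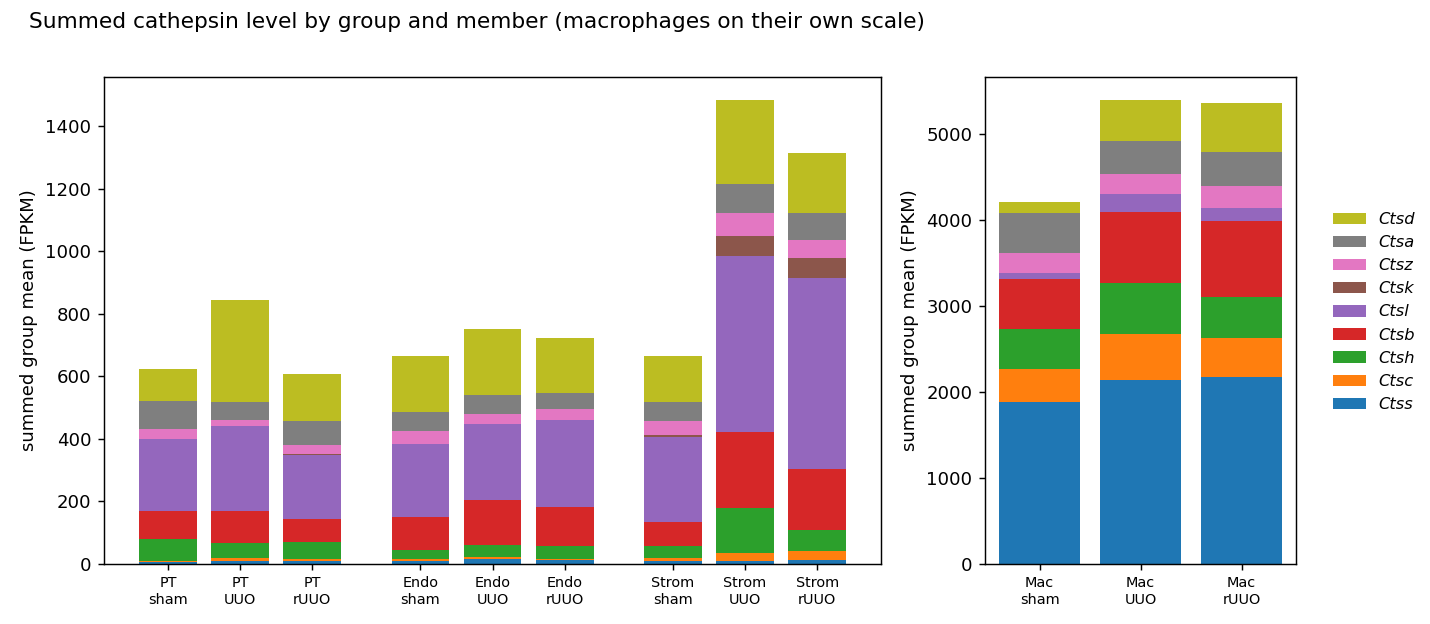
Summed cathepsin level in each group, as stacked group means in FPKM (vertical axis from 0), coloured by gene, with macrophages on a scale of their own. The stromal bars stand at 664, 1483 and 1316 FPKM for sham, UUO and rUUO, and Ctss takes the largest share in macrophages only.

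In pairwise comparisons of sham populations by limma on log2(FPKM + 1), with p-values adjusted over all 14204 genes tested by the Benjamini-Hochberg method, PT cells and macrophages differed in 7 of the 9 members (64.9% of all genes tested passed), PT and endothelial cells in 4 (62.3%), and PT and stromal cells in 6 (67.6%). Macrophages differed from endothelial cells in 7 (45.7% of all genes) and from stromal cells in 8 (48.1%), and endothelial from stromal cells in 2 (24.2%). The shares of genes that passed were high throughout, so that these counts describe the members and do not set them apart.

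Ctss, the endopeptidase that cleaves the invariant chain of MHC class II, was the macrophage member by the widest margin. Its sham samples read 1648, 1651, 1998 and 2208 FPKM in macrophages and between 5.44 and 13.4 FPKM in the 11 sham samples of the other populations. Ctsc, which encodes the dipeptidyl peptidase that activates the granule proteases of leukocytes, followed with 394 ± 62.0 FPKM (SD, n = 4) in macrophages against 2.57 ± 0.795 in PT cells (SD, n = 3). Ctsa, Ctsb, Ctsh and Ctsz were also highest in macrophages, by 2.36 to 3.96 on the log2 scale (limma, adjusted p at most 9.64e-09 over the comparisons with the other 3 populations). These 6 members kept this direction under every scaling tried.

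Ctsl had the opposite order. Its mean level in sham was 273 ± 14.8 FPKM in stromal cells (SD, n = 4), 233 ± 29.5 in PT cells (SD, n = 3), 233 ± 18.8 in endothelial cells (SD, n = 4) and 63.5 ± 5.77 in macrophages (SD, n = 4). Macrophages were lower than each of the others by 1.86 to 2.09 on the log2 scale (limma, adjusted p at most 4.48e-09), and the other 3 populations did not differ beyond their spread. Ctsk, the collagen-degrading enzyme best known from osteoclasts, was highest in stromal cells, at 3.79, 5.37, 15.2 and 5.88 FPKM against at most 1.27 FPKM in any other sham sample. Stromal cells exceeded the other populations by 2.17 to 2.84 on the log2 scale, which is given as a description, since Ctsk was tested between sham populations only because of its level in stromal cells. It is 1 of the members counted above in each of the 3 pairs with stromal cells.

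Ctsd was the most evenly spread member, with sham means of 181 ± 49.1 FPKM in endothelial cells (SD, n = 4), 147 ± 30.5 in stromal cells (SD, n = 4), 125 ± 22.2 in macrophages (SD, n = 4) and 101 ± 19.2 in PT cells (SD, n = 3). Neighbours in this order did not differ beyond their spread, and the difference of 0.80 on the log2 scale between endothelial and PT cells (limma, adjusted p = 0.00612) disappeared once mitochondrial genes were left out of the scaling, where it was 0.01 the other way. Mitochondrial genes took 58.7 to 75.6% of the FPKM sum in PT samples and 20.2 to 45.8% in the other samples, and the median gene was lower in PT cells than in each other population by 0.90 to 1.06 on the log2 scale. PT levels therefore compare with those of the other populations only relative to that shift: Ctsb, Ctsc, Ctsl, Ctss and Ctsz were lower on average in PT cells than in endothelial or stromal cells in 1 or both comparisons as deposited and higher under quantile normalisation or without mitochondrial genes. The higher level of Ctsh in PT cells, 69.9 ± 3.24 FPKM (SD, n = 3) against 28.3 ± 2.41 in endothelial and 39.0 ± 14.6 in stromal cells (SD, n = 4 each), kept its direction under all scalings tried, as did that of Ctsa. With TPM, however, neither Ctsa difference passed (adjusted p = 0.313 and 0.454), nor did that of Ctsh from stromal cells (adjusted p = 0.0645). Of all genes called between PT cells and macrophages in sham, 19.3% were higher in PT cells as deposited and 45.8% without mitochondrial genes, and the corresponding numbers were 1240 of 8848 and 2062 of 6866 against endothelial cells and 1120 of 9602 and 1792 of 7746 against stromal cells.

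**Figure D2:**
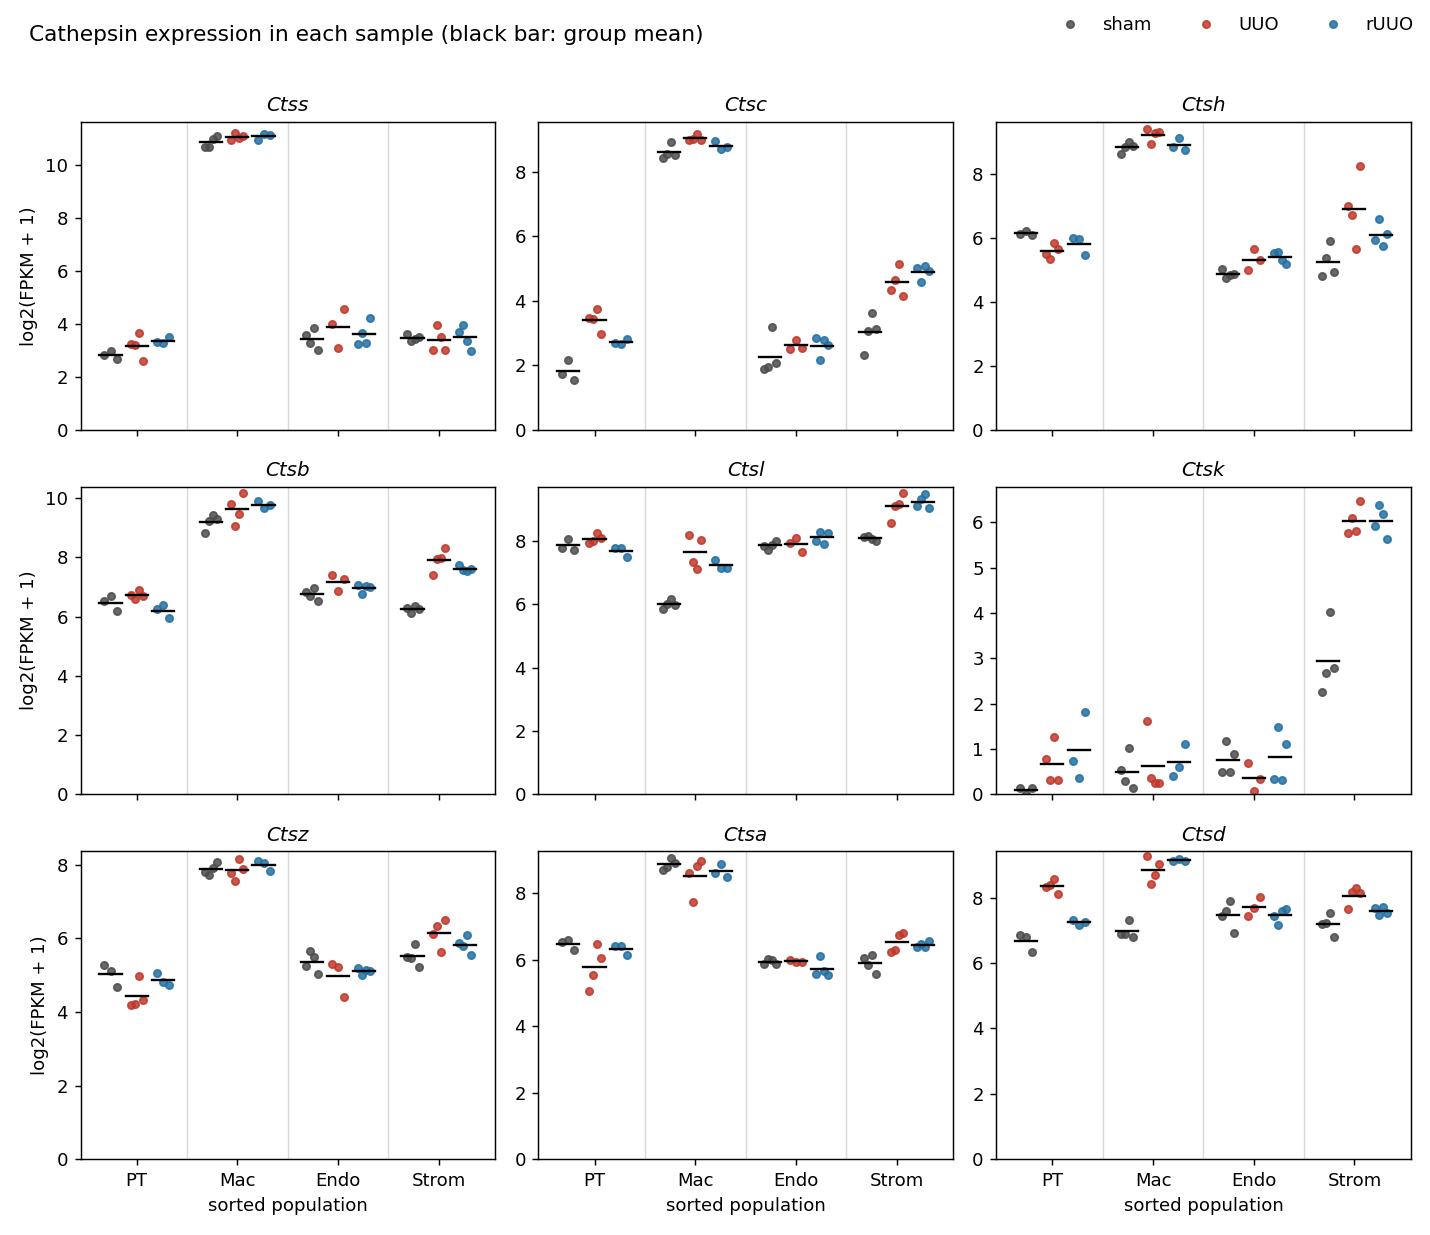
Expression of each cathepsin as log2(FPKM + 1) on the vertical axis in every sample of the 4 sorted populations (PT, Mac for macrophage, Endo for endothelial, Strom for stromal), with points coloured by surgery and a black bar at the group mean of the log2 values. Ctss, Ctsc, Ctsh, Ctsb, Ctsz and Ctsa sit highest in macrophages, Ctsk stands clear of 0 mainly in stromal cells, and Ctsd rises after UUO in PT cells, macrophages and stromal cells.

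The members that passed between surgeries were not the same in each population. After UUO, limma within each population found 8 of 9 members higher in stromal cells (26.4% of the 14033 genes tested passed), 2 higher and 1 lower of 8 in PT cells (32.8% of 11416 genes), 2 of 8 higher in macrophages (4.99% of 13332 genes) and none of 8 in endothelial cells (1.98% of 13393 genes). As deposited, the PT count is close to the share of all genes that passed and does not set the members apart. Under quantile normalisation the stromal count was 4 and the PT count 5. From sham to rUUO the counts were 5 of 9 higher in stromal cells (17.2% of genes), none of 8 in PT cells (7.46%), 2 of 8 higher in macrophages (3.44%) and none in endothelial cells (1.77%). From UUO to rUUO only Ctsd in PT cells passed, which fell, as 1 of 8 members there (3.83% of genes). None passed in macrophages (0% of genes, although 945 had an unadjusted p under 0.05), endothelial cells (0.0597%) or stromal cells (4.17%). At an unadjusted p under 0.05, PT rUUO against sham held Ctsc and Ctsd, where 2453 of 11416 genes did so. Endothelial UUO against sham held Ctsb (1788 of 13393 genes) and endothelial rUUO against sham Ctsh (1895 of 13393 genes). Stromal rUUO against UUO held Ctsd (2777 of 14033 genes). No member did so in macrophage or endothelial rUUO against UUO. These counts are near the shares of all genes and do not set the members apart. Ctsk averaged under 1 FPKM in the PT, macrophage and endothelial samples and was tested in stromal cells only.

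**Figure D3:**
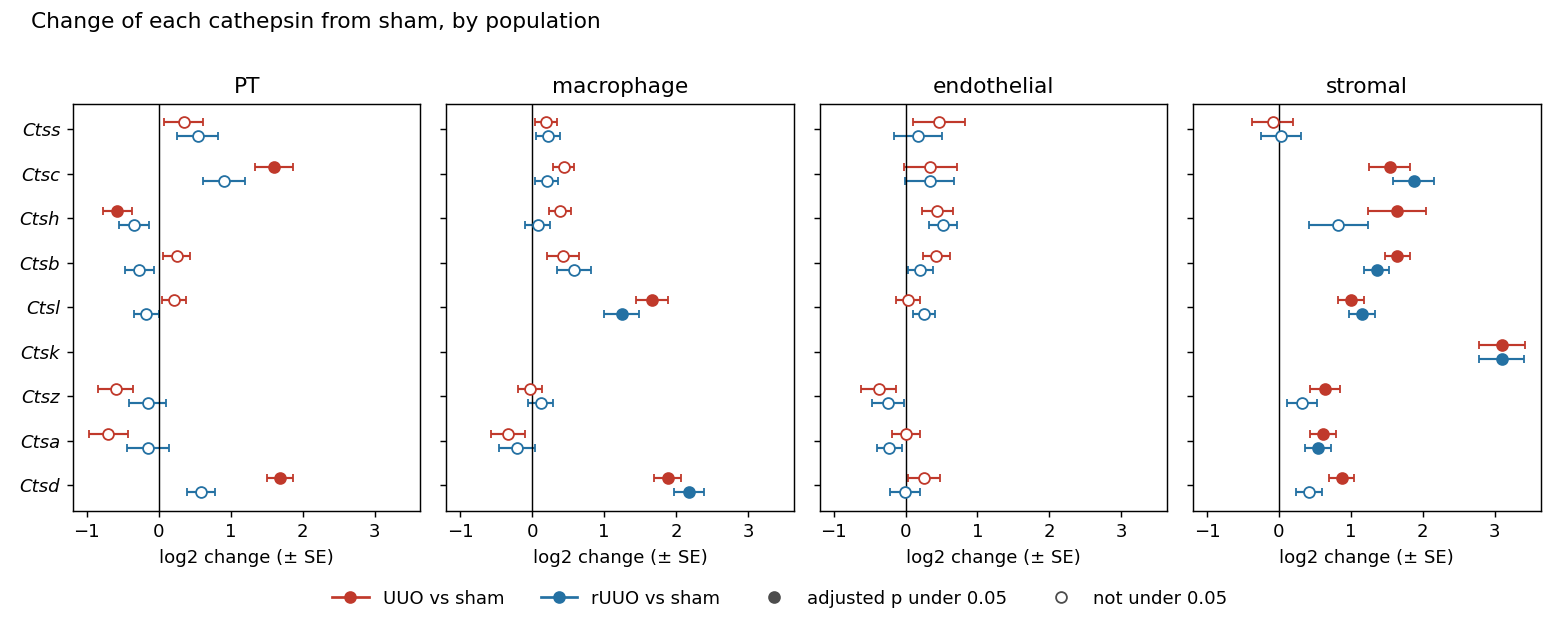
Log2 change from sham with its standard error (horizontal axis) for each cathepsin in UUO and in rUUO, 1 panel per population, filled where the adjusted p was under 0.05. Filled points number 8 in stromal UUO and 0 in endothelial cells, and Ctsk is absent from the 3 panels in which it was not tested.

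Ctsd, the main aspartic protease of the lysosome, rose in 3 of the 4 populations after UUO. In PT cells its sham samples read 114, 111 and 79.1 FPKM, its UUO samples 316, 335, 378 and 273 FPKM, and its rUUO samples 157, 143 and 152 FPKM. The 3 groups did not overlap, with UUO highest and rUUO between the others. The rise after UUO was 1.68 ± 0.18 on the log2 scale (SE; limma, adjusted p = 9.6e-06), which is 1.18 above the median of all genes tested, and the fall from UUO to rUUO was 1.10 ± 0.18 (SE, adjusted p = 0.00607). The difference between rUUO and sham, 0.59 ± 0.19 (SE), did not pass (adjusted p = 0.0821). With this change Ctsd passed Ctsl as the leading cathepsin of PT cells, from 16.3% of the summed level in sham to 38.5% in UUO.

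In macrophages Ctsd read 118, 116, 158 and 109.5 FPKM in sham, 613, 339, 410.0 and 522 FPKM in UUO, and 557, 582 and 553 FPKM in rUUO. All 7 samples after obstruction lay above all 4 sham samples. The rise was 1.88 ± 0.19 in UUO (SE; limma, adjusted p = 9.47e-05) and 2.18 ± 0.21 in rUUO (SE, adjusted p = 6.96e-05). The mean in rUUO was not below that in UUO, with a difference of 0.30 ± 0.21 that did not pass (SE; limma, adjusted p = 0.823). Whether this step differed from that of PT cells was not tested.

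In stromal cells Ctsd read 146, 148, 185 and 109.9 FPKM in sham, 199, 288, 310.1 and 279.6 FPKM in UUO, and 204, 176, 211 and 184 FPKM in rUUO. UUO samples lay above all sham samples and rUUO samples overlapped both. The rise after UUO was 0.87 ± 0.18 (SE; limma, adjusted p = 0.00202), and under quantile normalisation it was 0.40 and did not pass (adjusted p = 0.0838). Endothelial cells showed no such rise, with means of 181, 212 and 176 FPKM in sham, UUO and rUUO. The rise after UUO was larger in PT cells than in endothelial cells by 1.43 and in stromal cells by 0.81, and larger in macrophages by 1.63 and 1.01 (limma over all 44 samples, adjusted p of the differences 0.000544, 0.0248, 0.000296 and 0.00668).

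Among the cysteine endopeptidases, Ctsl rose in macrophages and stromal cells. Its macrophage samples read 56.9, 63.0, 71.0 and 62.9 FPKM in sham, 290.2, 162, 138 and 259 FPKM in UUO, and 169, 143 and 143 FPKM in rUUO. All 7 samples after obstruction lay above all 4 sham samples. The rise was 1.66 ± 0.22 in UUO (SE; limma, adjusted p = 0.00058) and 1.24 ± 0.24 in rUUO (SE, adjusted p = 0.00971), the latter not passing without macrophage rUUO replicate 1 (adjusted p = 0.0598) or with the replicate number as a block (adjusted p = 0.172).

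Stromal cells held the highest Ctsl values of the series. They read 281, 288, 265 and 256 FPKM in sham, 382, 553, 573 and 741 FPKM in UUO, and 553, 645, 712 and 532 FPKM in rUUO. Sham samples lay below all others, and the rise was 1.00 ± 0.18 in UUO and 1.15 ± 0.18 in rUUO (SE; limma, adjusted p = 0.000616 and 0.000294). Under quantile normalisation the UUO rise was 0.38 and did not pass (adjusted p = 0.158), whereas that in rUUO did (adjusted p = 0.0275). In PT and endothelial cells Ctsl had means of 206 to 278 FPKM in all 6 groups, and no comparison there passed.

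Ctsk had the largest change of the 9 genes. Its stromal samples read 3.79, 5.37, 15.2 and 5.88 FPKM in sham, 53.6, 67.2, 55.0 and 86.9 FPKM in UUO, and 59.5, 82.0, 71.3 and 48.7 FPKM in rUUO. All 8 samples after obstruction lay well above the highest sham sample. The rise of 3.10 ± 0.32 in UUO and of 3.09 ± 0.32 in rUUO (SE; limma, adjusted p = 3.31e-06 and 7.09e-06) corresponded to means 8.70 and 8.65 times that of sham. Without stromal sham replicate 3, the highest of the sham samples, these were 13.1 and 13.0 times. The difference between UUO and rUUO was 0.01 ± 0.32 (SE, adjusted p = 0.996). Outside stromal cells the highest Ctsk value in any sample was 2.51 FPKM, in PT rUUO.

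Ctss, which lies next to Ctsk on chromosome 3, passed in no comparison between surgeries. Stromal means were 10.1 ± 0.875, 9.81 ± 3.60 and 10.6 ± 3.31 FPKM in sham, UUO and rUUO (SD, n = 4 each), and the UUO change was −0.09 ± 0.28 (SE; limma, adjusted p = 0.852). Macrophage means were 1876 ± 276 (SD, n = 4), 2140 ± 165 (SD, n = 4) and 2172 ± 169 FPKM (SD, n = 3), and the UUO change of 0.20 ± 0.15 did not pass (SE, adjusted p = 0.519). In PT cells all 3 rUUO samples, at 8.63 to 10.4 FPKM, lay above all sham samples, at 5.44 to 6.86 FPKM, with a change of 0.54 ± 0.29 (SE, adjusted p = 0.297), and in endothelial UUO the change was 0.46 ± 0.36 (SE, adjusted p = 0.651). These adjusted p-values do not show that the levels were equal.

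Ctsb, an abundant cathepsin of most cells, passed in stromal cells and in no other population. Its stromal samples read 77.2, 68.0, 81.2 and 76.1 FPKM in sham, 167, 244, 250 and 316 FPKM in UUO, and 215, 188, 185 and 195 FPKM in rUUO. All 8 values after obstruction lay well above the highest sham value. The rise was 1.64 ± 0.18 in UUO and 1.36 ± 0.18 in rUUO (SE; limma, adjusted p = 5.13e-06 and 5.67e-05). In macrophages the means were 590.3 ± 101, 819 ± 266 and 876 ± 64.6 FPKM in sham, UUO and rUUO (SD), where all 3 rUUO samples lay above all sham samples but neither change passed (adjusted p = 0.294 and 0.228). The stromal change exceeded the macrophage change by 1.21 (limma, adjusted p = 0.000675).

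Of the enzymes that trim chain ends, Ctsc rose in PT and stromal cells. In PT cells it read 2.32, 3.46 and 1.93 FPKM in sham, 10.1, 9.93, 12.4 and 6.88 FPKM in UUO, and 5.46, 5.27 and 6.05 FPKM in rUUO. The groups did not overlap and their order was that of Ctsd. The rise after UUO was 1.60 ± 0.27 (SE; limma, adjusted p = 0.0005), and the rUUO value 0.91 ± 0.29 above sham did not pass (SE, adjusted p = 0.0716). In stromal cells Ctsc read 3.94, 7.44, 11.4 and 7.67 FPKM in sham, 19.4, 23.8, 34.7 and 16.8 FPKM in UUO, and 31.5, 23.2, 33.0 and 29.1 FPKM in rUUO. All 8 samples after obstruction lay above all 4 sham samples, by 1.54 ± 0.29 in UUO and 1.87 ± 0.29 in rUUO (SE; limma, adjusted p = 0.000901 and 0.000266). In macrophages all 4 UUO samples of Ctsc, at 509 to 575 FPKM, lay above all 4 sham samples, at 345 to 485 FPKM, but the change of 0.44 ± 0.15 did not pass (SE; limma, adjusted p = 0.115).

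Since Ctsc and Ctss are so much higher in macrophages, their levels elsewhere were set beside those of 8 macrophage markers (Adgre1, Csf1r, C1qa, C1qb, C1qc, Ptprc, Fcgr1 and Itgam). Ctss outside macrophages was at 0.326 to 0.703% of the macrophage level of the same surgery. It lay inside the range of the markers in 8 of 9 groups and above it in endothelial UUO, at 0.703% against at most 0.654%. Ctsc was at 0.652% in sham PT cells, where the markers ranged from 0.252 to 0.892%, but at 1.86% in UUO PT cells, where they ranged from 0.329 to 0.664%. In stromal cells Ctsc was at 1.93%, 4.47% and 6.48% with sham, UUO and rUUO, with markers at no more than 1.68%, 0.700% and 0.988%. The markers themselves also changed with surgery. Itgam rose in macrophages from 76.25 FPKM in sham to 320 in UUO and 261 in rUUO, and Csf1r fell in stromal cells from 10.2 to 3.15 and 4.05 FPKM. The range of the markers therefore also moves with surgery. The summed macrophage markers in stromal samples ranged over 38.8 to 42.5 FPKM with sham surgery, 24.5 to 42.6 with UUO and 23.4 to 42.0 with rUUO. In the 4 UUO samples these sums were 24.5, 42.6, 37.6 and 25.0 FPKM, in the order in which Ctsc is given above, so that the 2 samples with more Ctsc also had the higher sums. Their part in the Ctsc values was not tested.

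**Figure D4:**
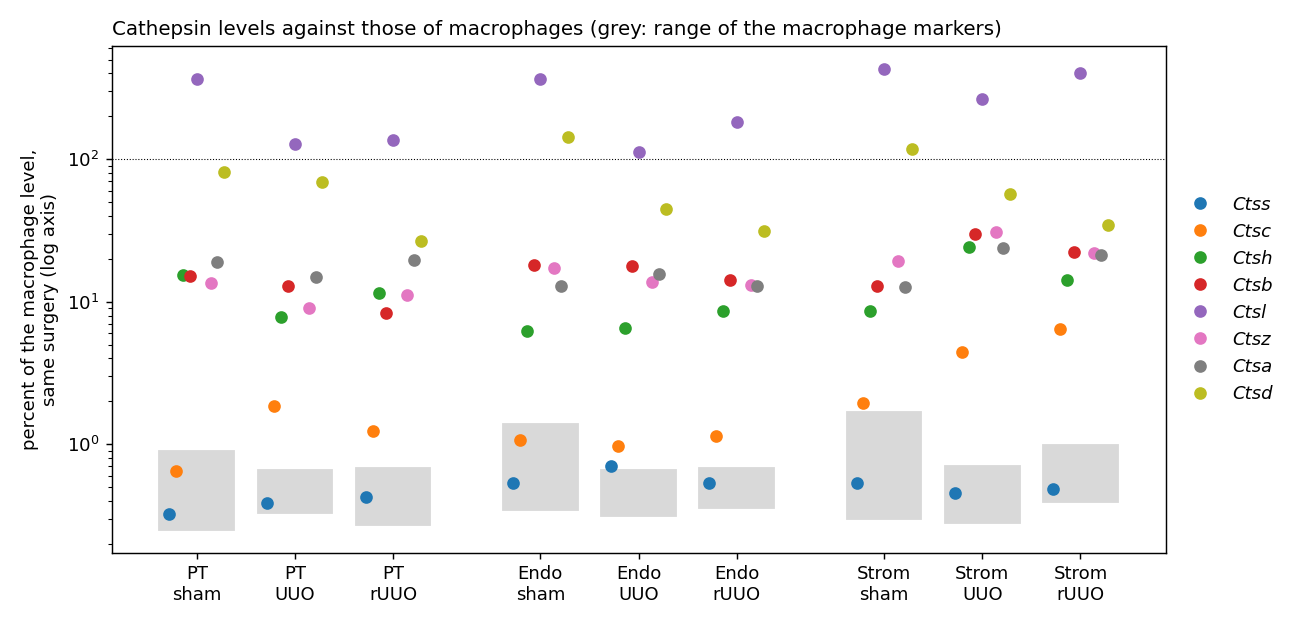
Mean level of 8 cathepsins in PT, endothelial and stromal cells as a percentage of the macrophage mean after the same surgery (logarithmic vertical axis), with a grey box spanning the same percentage for the 8 macrophage markers. Ctss lies inside the box in all groups but endothelial UUO, Ctsc lies above it in all groups but PT sham and endothelial sham, and Ctsl lies above 100% in every group. Ctsk is left out because macrophages hardly express it.

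Ctsh went in opposite directions in PT and stromal cells. In PT cells it read 68.7, 73.6 and 67.5 FPKM in sham, 43.6, 39.1, 56.4 and 48.7 FPKM in UUO, and 62.4, 61.2 and 43.2 FPKM in rUUO. UUO samples lay below all sham samples, with a fall of 0.58 ± 0.20 (SE; limma, adjusted p = 0.0385) that passed in only 4 of the 10 fits with 1 PT sample left out. In stromal cells it read 26.8, 40.5, 59.0 and 29.7 FPKM in sham, 126, 103, 49.2 and 299.5 FPKM in UUO, and 59.5, 94.2, 52.0 and 67.8 FPKM in rUUO. The UUO samples spread widely and 1 of them lay within the sham range. The rise of 1.64 ± 0.41 in UUO passed (SE; limma, adjusted p = 0.00705), that of 0.83 ± 0.41 in rUUO did not (SE, adjusted p = 0.195), and the UUO changes of stromal and PT cells differed by 2.22 (limma, adjusted p = 6.3e-05).

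Ctsz and Ctsa had the smallest stromal rises among the 8 members that passed after UUO. In stromal cells Ctsz read 44.3, 43.2, 56.9 and 36.0 FPKM in sham and 68.8, 80.2, 48.7 and 88.8 FPKM in UUO, a rise of 0.64 ± 0.21 (SE; limma, adjusted p = 0.0345) that passed in 6 of 12 fits with 1 stromal sample left out. Ctsa read 65.0, 56.8, 69.9 and 46.4 FPKM in stromal sham, 74.3, 77.8, 106 and 111 FPKM in UUO, and 83.0, 87.3, 82.3 and 93.2 FPKM in rUUO. The sham samples of Ctsa lay below all others, with rises of 0.62 ± 0.18 in UUO and 0.55 ± 0.18 in rUUO (SE; limma, adjusted p = 0.0192 and 0.0497). The rUUO rise of Ctsa passed in 4 of 12 fits with 1 stromal sample left out.

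In PT cells the same genes tended the other way without passing as deposited. For Ctsa the 3 sham samples averaged 88.2 ± 10.3 FPKM, the 4 UUO samples 57.4 ± 23.9 and the 3 rUUO samples 79.3 ± 8.78 (SD), and for Ctsz the averages were 31.8 ± 6.64, 21.0 ± 6.26 and 28.1 ± 3.51 FPKM (SD). The UUO changes were −0.70 ± 0.27 and −0.60 ± 0.24 (SE; limma, adjusted p = 0.0641 and 0.0725). The median gene moved by 0.51 in this comparison, and relative to it Ctsa, Ctsz and Ctsh changed by −1.20, −1.10 and −1.08. With quantile normalisation, or without mitochondrial genes, all 3 passed as lower and Ctsc and Ctsd as higher, 5 members in all. Of all 3747 genes called in PT UUO against sham, 3186 were higher as deposited, against 1218 of 2435 under quantile normalisation. The share of higher calls under quantile normalisation was also 58.8% rather than 17.6% in PT rUUO against UUO, 68.6% rather than 87.3% in PT rUUO against sham, 61.1% rather than 79.3% in endothelial rUUO against sham, 53.3% rather than 70.8% in stromal rUUO against UUO and 51.5% rather than 67.6% in stromal rUUO against sham. Without mitochondrial genes it was 39.0% rather than 50.8% in stromal UUO and 48.4% rather than 64.5% in endothelial UUO.

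In endothelial cells the 8 members tested had log2 changes from sham of at most 0.52 in either surgery. The largest change in rUUO was that of Ctsh, whose 4 sham samples averaged 28.3 ± 2.41 FPKM, the 3 UUO samples 39.5 ± 9.48 and the 4 rUUO samples 41.2 ± 5.13 (SD), where all rUUO samples lay above all sham samples and the rUUO change of 0.52 ± 0.20 did not pass (SE; limma, adjusted p = 0.235). Ctsb was at 108 ± 14.6, 146 ± 27.2 and 124 ± 11.1 FPKM (SD), with a UUO change of 0.43 ± 0.18 (SE, adjusted p = 0.319).

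The differences between populations were themselves tested for all 9 members and 6 pairs of populations. The UUO change of PT cells differed from that of macrophages in 2 members (15.5% of all 14332 genes tested passed), of endothelial cells in 2 (11.1%) and of stromal cells in 7 (29.2%). The macrophage change differed from the endothelial in 2 (2.31%) and from the stromal in 6 (16.2%), and the endothelial from the stromal in 6 (13.1%). Of the 25 differences that passed, 19 involved stromal cells, and in 17 of these the stromal change was the higher, with Ctsd the exception in the other 2. Of the 17, 3 were differences of Ctsk, which entered this fit only through its level in stromal cells and is no support here. Without Ctsk, 22 differences passed, 16 of them with stromal cells, and in 14 of these the stromal change was the higher. In the pairs with stromal cells 29.2%, 16.2% and 13.1% of all genes passed, against 15.5%, 11.1% and 2.31% in the other pairs. The number of member calls that involve stromal cells therefore does not set the members apart. The median gene changed more in PT cells than elsewhere, by 0.40 to 0.51, and 88.6% of the genes called between PT cells and macrophages were higher in PT cells, against 56.9% under quantile normalisation. Several member calls were lost under another scaling: the PT change of Ctsc passed neither against macrophages (adjusted p = 0.133) nor against endothelial cells (adjusted p = 0.265) under quantile normalisation, and that of Ctsd did not pass against stromal cells with TPM (adjusted p = 0.0582).

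The inhibitors of cysteine cathepsins moved as well. Cst3, the secreted cystatin C, went from 66.1 to 284 FPKM in PT cells between sham and UUO (log2 change 2.075), and Cstb, the cystatin of the cytosol, from 40.3 to 157 FPKM (1.89), so that both cystatins tested were higher, where 32.8% of all genes passed in either direction. In macrophages Cst3 fell from 3565 to 1649 FPKM (by 1.12) and Cstb rose from 75.7 to 167 FPKM (1.06). In stromal cells Cst3 fell from 782 to 424 FPKM (by 0.90), and in endothelial cells from 578 to 347 FPKM (by 0.73), the only gene of the lysosomal lists that passed there after UUO.

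Of other lysosomal hydrolases and their cofactors, 18 of 35 tested in stromal cells were higher after UUO, 1 was lower and 16 did not pass, where 26.4% of all genes passed in either direction, with a list median of 0.72 where the median of all genes was −0.07. Those that rose included Lgmn, the legumain that cleaves cathepsin precursors (11.4 to 49.5 FPKM, log2 change 2.04), Arsa, an arylsulphatase (2.59 to 9.17 FPKM, 1.53), Npc2, a cholesterol carrier (29.6 to 88.5 FPKM, 1.51), and Man2b1, a mannosidase (17.8 to 47.8 FPKM, 1.47). The gene that fell was Neu1, a sialidase that Ctsa protects, from 10.8 to 4.00 FPKM. In rUUO against sham the counts were likewise 18 higher and 1 lower, with a median of 0.86, where 17.2% of all genes passed in either direction. In UUO the counts were 18 and 2 under quantile normalisation and 14 and 3 without mitochondrial genes.

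Of lysosomal membrane proteins, 6 of 15 were higher and none lower in stromal UUO (4 and 2 under quantile normalisation), where 26.4% of all genes passed in either direction. Those higher included Npc1, the cholesterol exporter (1.36), Cd63, a tetraspanin (1.18), Ostm1, the partner of a chloride transporter (1.06), and Scarb2, the receptor that brings glucocerebrosidase to the lysosome (1.04). Igf2r, a mannose 6-phosphate receptor, rose from 8.32 to 33.4 FPKM (1.88), while Gnptg, a subunit of the enzyme that makes the tag, fell by 1.25. Of the V-ATPase subunits, which acidify the lysosome, 5 of 17 were lower and none higher (8 and none under quantile normalisation). As deposited, this count is close to the 26.4% of all genes that passed and does not set the list apart. The largest fall was that of Atp6v1b1, the form of intercalated cells, by 2.86, and the summed markers of distal tubule and collecting duct in the same samples went from 147 to 287 FPKM in sham to 2.29 to 12.2 FPKM in UUO. Of the MiT/TFE factors Mitf rose (3.32 to 9.83 FPKM, 1.32) and Tfeb fell (by 1.37).

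In PT cells after UUO, 12 of 17 V-ATPase subunits were higher and 1 lower (11 and 1 under quantile normalisation), where 32.8% of all genes passed in either direction, with a median of 1.09 where all genes had 0.51, led by Atp6v0d2 (2.60 to 136 FPKM, log2 change 5.27) and Atp6v1b1 (2.02 to 46.7 FPKM, 3.98). Beside this, the summed markers of distal tubule and collecting duct went from between 22.4 and 29.7 FPKM in sham to between 254 and 380 in UUO. Most of this rise was 1 gene, Atp6v1g3, a V-ATPase subunit used as a collecting duct marker. It went from 5.50 to 283 FPKM, where the sums averaged 25.0 and 309 FPKM. No other of these markers passed in PT cells after UUO. Their part in the changes of PT cells was not tested. Of other hydrolases 6 of 34 were higher, among them Asah1, the acid ceramidase (1.45), and 6 lower, led by Arsb, an arylsulphatase (−1.68), and Lipa, the acid lipase (−1.62). Under quantile normalisation 3 were higher and 14 lower. Of other cathepsins, Ctse (2.43), Ctsf (1.02) and Ctso (0.83) rose, with Ctse at only 4.81 FPKM in UUO. Only 1 of these 3 passed under quantile normalisation. Of the MHC class II genes 4 of 6 were higher, led by Cd74, the invariant chain (1.72).

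In macrophages the counts of lysosomal genes that passed after UUO are to be read against the 4.99% of all genes that passed. Gla, an alpha-galactosidase (1.58), and Lgmn (0.73) were the 2 of 35 hydrolases that passed, Lamp1 (0.72) was 1 of 15 membrane proteins, Atp6v0d1 (0.88) and Atp6v1d (0.78) were 2 of 17 V-ATPase subunits (none under quantile normalisation) and Tfec, a MiT/TFE factor (0.76 to 5.43 FPKM, 1.90), 1 of 4. In rUUO against sham Acp5, the tartrate-resistant phosphatase, rose from 9.51 to 74.9 FPKM (2.86) and Gla from 2.62 to 15.4 FPKM (2.20). Of the genes for MHC class II loading, a pathway in which Ctss acts, 4 of 7 were lower in UUO, led by H2-Eb1 (5664 to 3010.0 FPKM, −0.97). The summed neutrophil markers in macrophage samples were 3.15 to 8.10 FPKM in sham and 10.7 to 90.2 in UUO. Among them S100a9 (3.35 to 38.1 FPKM) and S100a8 (1.355 to 15.3 FPKM) passed as higher, and Elane and Mpo were at or near 0. Summed lymphocyte markers were 1.66 to 2.13 FPKM in sham and 3.37 to 49.3 in UUO. Their part in these results was not tested.

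**Figure D5:**
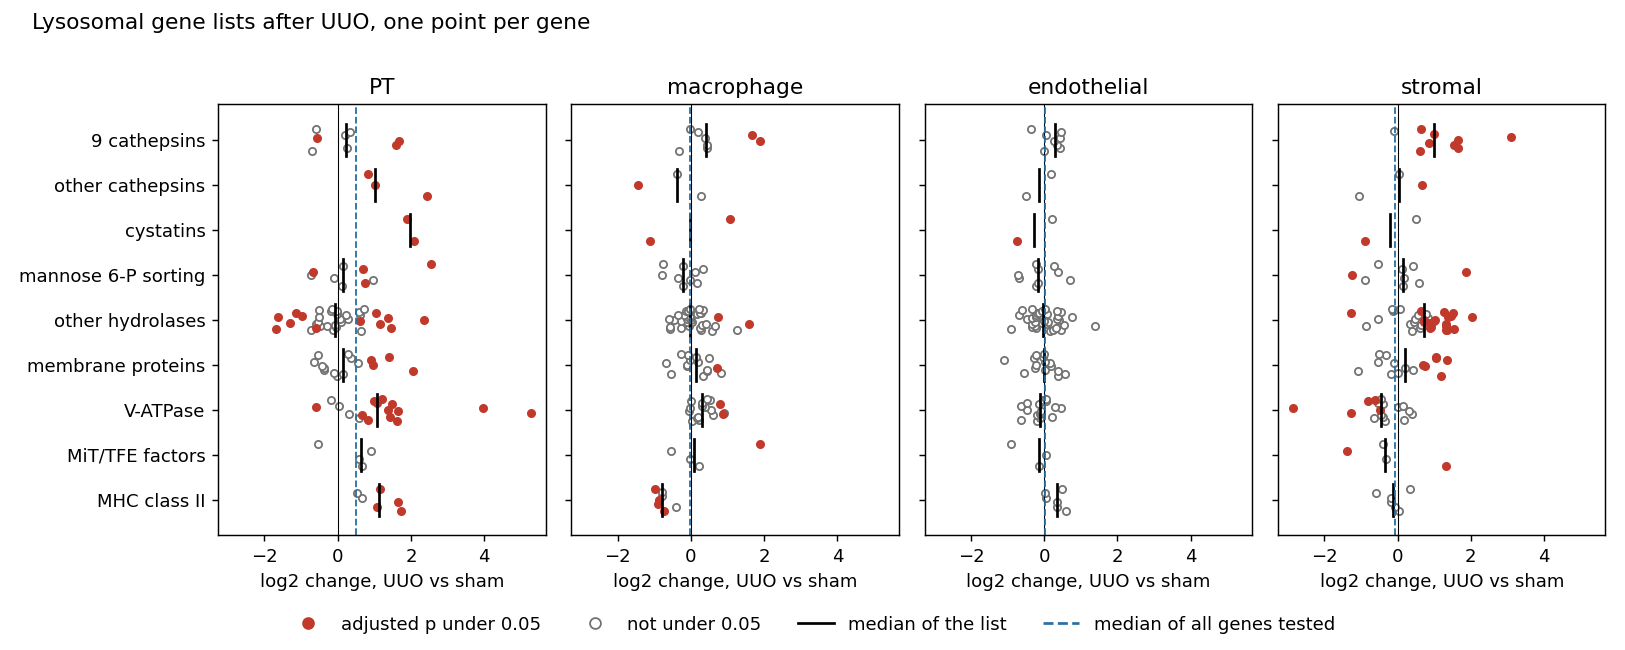
Log2 change after UUO (horizontal axis) of each tested gene of the lysosomal lists in the 4 populations, filled where the adjusted p was under 0.05, with a black bar at the median of the list and a dashed line at the median of all genes tested. In stromal cells the cathepsins have a median of 1.00 and other hydrolases 0.72, in PT cells the V-ATPase subunits have 1.09, and in macrophages the MHC class II genes have −0.80.

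The sorted samples carried their own markers throughout, with shifts between surgeries. In stromal cells the summed stromal markers lay between 1037 and 2604 FPKM in sham and between 6760 and 11935 in UUO, while Pdgfrb itself, the gene behind the sort, went from 212 to 117 FPKM. Summed neutrophil markers in stromal samples were at most 0.42 FPKM in sham and 5.63 to 61.5 in UUO, and the stromal UUO sample with the highest Ctsh, replicate 4, had the lowest of these sums. Of the neutrophil markers S100a9 went from 0.105 FPKM in stromal sham to 15.9 in UUO and passed. Elane was at 0 in all stromal groups and Mpo averaged 0, 2.69 and 0.0225 FPKM in sham, UUO and rUUO. In PT cells the summed PT markers were at 1781 to 2413 FPKM with sham surgery, at 473 to 631 with UUO and at 1062 to 1375 with rUUO. Summed markers of the thick ascending limb averaged 19.7, 156 and 79.7 FPKM in PT sham, UUO and rUUO, of which Umod made up 17.4, 147 and 72.9. In the same order they averaged 281, 38.1 and 68.7 FPKM in stromal cells and 313, 91.4 and 126 FPKM in endothelial cells. Summed podocyte markers averaged 445, 260 and 396 FPKM in endothelial sham, UUO and rUUO. The part of these shifts in the cathepsin changes was not tested.

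Over the means of the 12 groups the members fell into patterns that are given as a description, since the points share the macrophage groups. Ctsa, Ctsb, Ctsc, Ctsh, Ctss and Ctsz had Pearson's r of 0.916 to 0.974 in all 15 pairs, Ctsl had −0.669 to −0.399 with each of the 6, and Ctsk had 0.738 with Ctsl. Among 14332 genes, the 3 most like Ctss were Fyb, C3ar1 and C1qc (r = 0.999 each), those most like Ctsk were Efs, Mmp3 and Col6a6 (0.996, 0.992 and 0.992), and Ctsz was closest to Psap, the precursor of saposins (0.988). Ctsh was closest to Ctsa itself (0.974). Ctsd had no neighbour as near, with Snhg15 at 0.885 and Cstb, the cystatin named above, at 0.874.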

How the data were processed

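RNA from sorted kidney cells was amplified to cDNA (Ovation RNA-Seq System V2) and sequenced as paired reads of 150 bases. The authors deposited FPKM per gene on GRCm38, rounded to 2 decimals. The submitters' processing notes name FastQC, RSEM, Bowtie2, DESeq2 and mm10, with no versions. The table has no counts, so depth is unknown and no counting interval is given. The FPKM sum per sample was 586929 to 884982. Of 46 value columns 44 were used. The other 2 share the title of a single endothelial UUO sample and were left out, and sham replicate 3 of the PT cells was not analysed here. For a PT sample titled with both surgeries, the treatment label (UUO) decided the group.

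Groups were compared by limma with its intensity trend. Values were log2(FPKM + 1), and a gene was tested if it averaged 1 FPKM or more over the fitted samples, with Benjamini-Hochberg adjustment over all genes tested and a threshold of 0.05. Each population was fitted alone over its 3 surgeries, sham samples together for the population pairs, and all 44 samples for differences between UUO changes. Log2 changes are on the log2(FPKM + 1) scale and understate those of low genes. The series design gives 4 mice per group, but the labels do not tie samples to mice, so p-values measure the spread between these samples. The members and gene lists were chosen with earlier results of these data known. All members are named. Of each other list, counts and up to 4 of the largest changes past the threshold are given, and marker genes by level. Neu1 in stromal UUO was named outside that rule, after its value was seen. The result for 1 gene of these lists is not reported here. Alternatives were a pseudocount of 0.1, no filter, TPM (each sample scaled to 1000000), quantile normalisation, rescaling without the 37 mitochondrial genes, no intensity trend, a fit on all samples, the replicate number as a block, and each replicate left out. The fit was tested on simulated data. Promoter windows came from RefSeq (GRCm38.p6). Python 3.11.15, numpy 2.4.6, pandas 2.3.3, matplotlib 3.10.9, R 4.3.3 and limma 3.58.1 were used.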

Additional observations from a re-analysis of the deposited data

Results flagged for a closer look

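In 72 sets of 4 samples of one gene and group, 2 held a sample far from the other 3, where chance gives about 1 in 20. Ctsc in endothelial sham replicate 3 was at 8.07 FPKM, against 2.70, 2.85 and 3.20 FPKM in the others. Ctsk in macrophage UUO replicate 1 was at 2.06 FPKM, against 0.20, 0.20 and 0.28 FPKM.

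The change after UUO differed between populations in 25 of 54 tests (limma over all 44 samples, p-values adjusted over all genes tested). Values are differences of log2 changes. PT cells exceeded macrophages for Ctsc by 1.16 (adjusted p = 0.0234), and Ctsl had −1.45 (adjusted p = 7.73e-05). PT cells exceeded endothelial cells for Ctsc by 1.25 (adjusted p = 0.0218) and for Ctsd by 1.43 (adjusted p = 0.000544). Macrophages exceeded endothelial cells for Ctsd by 1.63 (adjusted p = 0.000296) and for Ctsl by 1.62 (adjusted p = 9.68e-05).

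Against stromal cells, PT cells had a larger change for Ctsd, by 0.81 (adjusted p = 0.0248). They had smaller changes for Ctsa at −1.32 (adjusted p = 0.00147), Ctsb at −1.40 (adjusted p = 8.95e-05), Ctsh at −2.22 (adjusted p = 6.3e-05), Ctsk at −2.53 (adjusted p = 0.000197), Ctsl at −0.79 (adjusted p = 0.0179) and Ctsz at −1.24 (adjusted p = 0.00131). Macrophages had a larger change for Ctsd, by 1.01 (adjusted p = 0.00668), and smaller ones for Ctsa at −0.95 (adjusted p = 0.0263), Ctsb at −1.21 (adjusted p = 0.000675), Ctsc at −1.10 (adjusted p = 0.023), Ctsh at −1.25 (adjusted p = 0.0247) and Ctsk at −2.98 (adjusted p = 2.25e-05). Endothelial cells had smaller changes for Ctsb at −1.22 (adjusted p = 0.00129), Ctsc at −1.19 (adjusted p = 0.0216), Ctsh at −1.20 (adjusted p = 0.0472), Ctsk at −3.49 (adjusted p = 3.82e-06), Ctsl at −0.97 (adjusted p = 0.00856) and Ctsz at −1.01 (adjusted p = 0.0174). Ctsk was near 0 outside stromal cells and entered this fit only through them, so its 3 differences restate its stromal change and are no support for a difference.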

How the results depend on the processing

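Counts of members that passed moved beyond 1.5 times in 4 comparisons. In PT UUO against sham 3 members passed, and 5 with quantile normalisation and 5 without mitochondrial genes, while leaving out 1 replicate gave 2 to 5, with 5 without PT UUO replicate 3. In PT rUUO against sham 0 passed, and 1 with a pseudocount of 0.1 (Ctsc), 1 without mitochondrial genes (Ctsd) and 1 in the fit on all samples (Ctsc). In macrophage rUUO against sham 2 passed, and 1 with the replicate block and 1 to 2 with a replicate left out, with 1 without macrophage rUUO replicate 1, where Ctsl no longer passed. In stromal UUO against sham 8 passed, 4 with quantile normalisation (Ctsb, Ctsc, Ctsh and Ctsk) and 6 to 8 with a replicate left out. The cause was not tested.

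The differences that changed sign and passed either as deposited or in the alternative were all between PT cells and another population in sham. Sign changes that passed in neither are not listed here. Given as PT minus the other, the values under quantile normalisation were 0.49 for Ctsd against macrophages, 0.48 for Ctsb, 0.53 for Ctss and 0.51 for Ctsz against endothelial cells, and 0.0624 for Ctsc, 0.59 for Ctss and 0.33 for Ctsz against stromal cells. Without mitochondrial genes they were 0.86 for Ctsd against macrophages, 0.54 for Ctsb, 0.0117 for Ctsd, 0.13 for Ctss and 0.47 for Ctsz against endothelial cells, and 0.49 for Ctsl, 0.0035 for Ctss and 0.22 for Ctsz against stromal cells.

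The labels do not say whether samples with the same replicate number came from the same mouse. Deviations of same-numbered samples from their group means correlated at −0.06 to 0.101 between surgeries (35 pairs, 1 over 0.1) and at −0.075 to 0.167 between sham populations (21 pairs, 2 over 0.1). Samples of different surgeries come from different mice, so only pairs within a surgery bear on this. Correlations this low in groups of 3 or 4 samples cannot exclude that a number marks the same mouse. Under the replicate block Ctsl in macrophage rUUO, Ctsz in stromal UUO and Ctsa in stromal rUUO lost their calls against sham and Ctsa in PT UUO gained one. Depth is unknown, groups hold 3 or 4 samples, and PT values depend most on the scaling. In stromal rUUO against sham 5 passed, and 4 to 5 with a replicate left out.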
